A study of Mus musculus with 10 samples.

Results

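The sine oculis-related homeobox genes and the eyes absent genes encode proteins that work together, and 8 of them, Six2, Six3, Six4, Six5, Six6, Eya1, Eya2 and Eya4, were followed here in ChIP-seq data from mouse ES cells. They are 8 of the 24500 genes counted. They were chosen by name, with earlier results on their H3K27me3 and EZH2 reads known, so the values of the chosen genes and their comparison between genotypes are given as a description. Eya3, a related gene, is given beside them as a reference. The libraries came from E14 cells, a mouse ES cell line labelled as strain 12910la, in 2 genotypes. Control cells were wild type. The ex14D-Ezh2 cells, labelled as an Ezh2 knockout of exon 14, carry a CRISPR-Cas9 in/del in that exon, which leaves the isoform without exon 14 (ex14D) as the working form of EZH2. For each genotype there were 2 libraries with an antibody against H3K27me3, 2 with an antibody against EZH2 and 1 input library without immunoprecipitation, 10 libraries in all. The labels do not say whether the libraries of a group came from separate cultures or clones, so the p-values measure the spread between these libraries, which may be technical.

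The sine oculis-related proteins (such as Six2 and Six3) are homeodomain transcription factors that bind DNA, and the eyes absent proteins are phosphatases that bind them and act with them as coactivators. Together with PAX and DACH proteins they form a network that sets up the eye, ear, kidney, muscle and other organs. EZH2 is the catalytic subunit of Polycomb repressive complex 2 (PRC2), which methylates lysine 27 of histone H3. The trimethylated form, H3K27me3, marks silent genes, and in ES cells many genes of developmental regulators carry it over CpG-rich promoters. Such a gene is usually covered by a broad domain of the mark, not by a narrow peak.

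Reads on the 1 kb promoter windows numbered 594289 and 937207 in the control H3K27me3 libraries, 1450937 and 1248018 in the ex14D libraries, and 409371 and 416778 in the control and ex14D inputs. The EZH2 libraries held 13628137 to 18403892 reads on genes. Divided by its degrees of freedom, the chi-square between replicates was 1.48 to 3.95, more than counting noise gives, so none was counted as a repeat of another. The ES cell label was set beside 6 pluripotency genes (Pou5f1, Nanog, Sox2, Zfp42, Esrrb and Klf4), whose promoters are expected to lack the mark in ES cells. In control, 1 of the 6, Klf4, reached 2-fold enrichment over input in each library, as did 11.3% of all promoters. In ex14D 0 of the 6 did, against 9.14% of all promoters. With so few genes, these counts do not tell the 6 from promoters in general. ChIP-seq does not measure their RNA, and counts at Ezh2 do not separate exon 14, so neither label was checked further.

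The promoter sequences show how far the family members differ in CpG content, the feature most often tied to PRC2 targets in ES cells. The 250 bases before the annotated transcription start were taken from the RefSeq promoter table for GRCm38.p6, in which Six2, Six3, Six4, Six5, Six6, Eya4 and Eya3 had an entry. Those of Six3, which had the largest change in H3K27me3, of Eya4, which also rose, of Six4, which carried almost none of the mark, and of Six5, whose EZH2 reads fell, read as follows from 5′ to 3′, with each CpG (the letters CG, which read the same on both strands) in capitals.
Six3: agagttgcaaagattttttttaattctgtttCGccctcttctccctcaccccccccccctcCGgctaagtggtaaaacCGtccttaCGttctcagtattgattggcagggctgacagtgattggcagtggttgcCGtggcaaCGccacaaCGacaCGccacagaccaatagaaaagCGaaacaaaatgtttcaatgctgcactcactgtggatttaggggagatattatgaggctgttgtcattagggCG
Eya4: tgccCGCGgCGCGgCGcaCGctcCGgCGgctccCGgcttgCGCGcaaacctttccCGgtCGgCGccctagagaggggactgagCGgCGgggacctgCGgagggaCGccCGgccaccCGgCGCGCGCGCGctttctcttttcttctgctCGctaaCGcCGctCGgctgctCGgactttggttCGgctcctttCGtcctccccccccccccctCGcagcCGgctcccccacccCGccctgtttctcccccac
Six4: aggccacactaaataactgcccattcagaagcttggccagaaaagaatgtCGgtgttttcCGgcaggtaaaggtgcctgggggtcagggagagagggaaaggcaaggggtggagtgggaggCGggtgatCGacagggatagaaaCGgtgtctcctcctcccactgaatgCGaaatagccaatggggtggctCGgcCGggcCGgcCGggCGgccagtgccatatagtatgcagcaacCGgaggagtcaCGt
Six5: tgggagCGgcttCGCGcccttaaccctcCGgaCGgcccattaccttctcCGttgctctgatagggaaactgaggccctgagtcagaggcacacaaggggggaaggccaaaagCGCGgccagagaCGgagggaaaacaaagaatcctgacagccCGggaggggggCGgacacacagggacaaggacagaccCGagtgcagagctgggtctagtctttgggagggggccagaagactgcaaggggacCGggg
These lie at chr17:85620584-85620833 on the forward strand for Six3, chr10:23349944-23350193 on the reverse strand for Eya4, chr12:73113426-73113675 on the reverse strand for Six4 and chr7:19094294-19094543 on the forward strand for Six5. The Eya4 stretch held 35 CpGs and was 74.0% GC, and 2.97% of the 32851 RefSeq promoters of this length held as many or more. Six2 held 26 CpGs (9.59% of promoters held as many or more), Six6 held 17 (23.5%), and Six4 and Six5 held 13 each (31.5%). The Six3 stretch, with 10 CpGs, was the poorest of these in CpG (37.8%). The median promoter held 6 CpGs, and 92.1% held at least 1. Six3 was among the most marked promoters. Six4, with more CpGs in this stretch, had the fewest H3K27me3 reads of the 8 genes in every library. By these reads it ranked at the 18.5th to 53.4th percentile of all promoters. CpGs after the start, which the 1 kb window of the H3K27me3 counts also takes in, were not counted. A link between CpG content and the mark was not tested.

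H3K27me3 was read first as CPM, promoter counts scaled to the same promoter total in every library, over windows that are all 1 kb long. Control input still differed between these windows, from 26.9 CPM at Six6 to 61.1 CPM at Eya2. An order of genes by CPM is therefore not corrected for input. In control cells the promoters fell into well marked, weakly marked and unmarked ones. Six2, a factor that keeps kidney progenitors undifferentiated, had 749 and 506 CPM (627 ± 172, SD, n = 2). Six3, a factor of forebrain and eye formation, had 606 and 552 CPM (579 ± 38.3). Six2 and Six3 therefore did not differ beyond their spread. Six6, a factor of eye and pituitary development, had 353 and 274 CPM (314 ± 56.0). Eya2, a coactivator expressed in placodes and muscle, had 276 and 267 CPM (271 ± 6.51), which overlapped Six6. Eya4, a coactivator needed for hearing, had 180 and 186 CPM (183 ± 3.97), below both. Six5, a widely expressed factor that lies next to the myotonic dystrophy kinase gene, had 74.0 and 127 CPM (101 ± 37.4). Eya1, a coactivator of kidney, ear and pharyngeal arch formation, had 45.4 and 35.2 CPM (40.3 ± 7.23), which was close to its input of 34.2 CPM. Six4, a factor of muscle and kidney development, had 8 and 3 reads, or 13.5 and 3.20 CPM (8.33 ± 7.26), below its input of 56.2 CPM.

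In ex14D cells Six3 and Six2 were again the highest by CPM. Six3 had 1309 and 1707 CPM (1508 ± 281, SD, n = 2) and Six2 had 899 and 1091 CPM (995 ± 136), so that both ex14D libraries of each gene lay above both control libraries, and Six3 lay above Six2 in every ex14D library. Eya4 had 238 and 250 CPM (244 ± 8.15), also above both control values. Six6 had 302 and 267 CPM (284 ± 24.8), overlapping control, and Eya2 had 255 and 221 CPM (238 ± 23.9), below both control values. In ex14D, Six6 thus lay above Eya2 and Eya4, which overlapped each other. Six5 had 54.4 and 58.5 CPM (56.5 ± 2.86), below both control values. Eya1 had 35.2 and 32.1 CPM (33.6 ± 2.19), at or just under its lower control library. Six4 had 8.96 and 9.62 CPM (9.29 ± 0.464), within its control range.

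**Figure D1:**
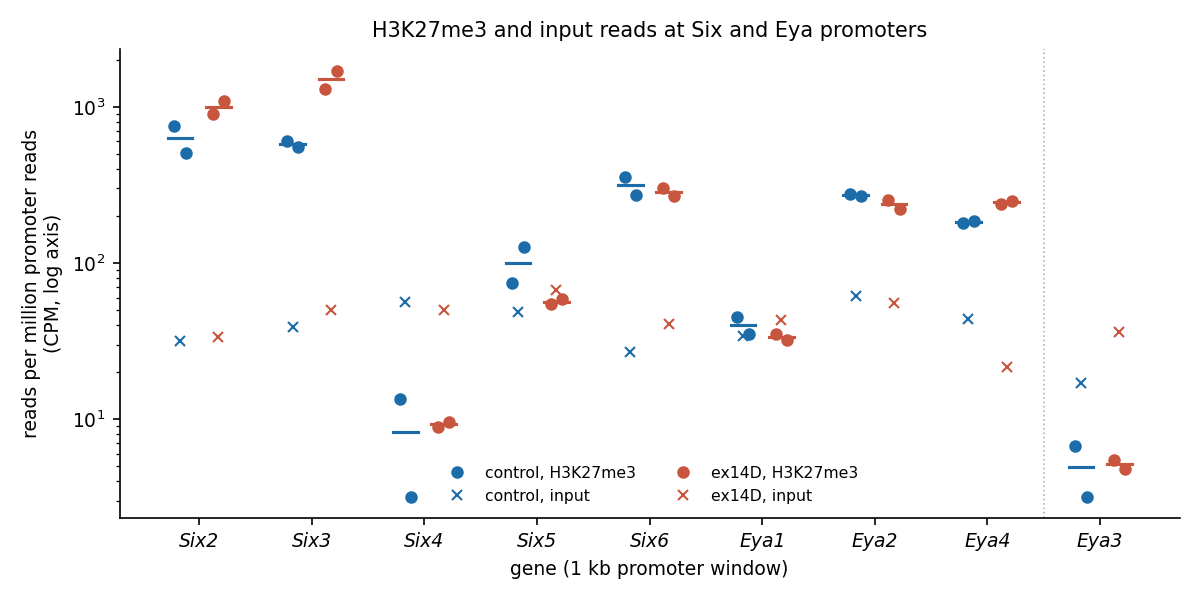
CPM (log axis) in the 1 kb promoter window of the 8 genes and, right of the dotted line, of Eya3, with 1 dot per H3K27me3 library, a bar at the mean of 2 libraries and a cross for the input library of each genotype. Six3 rose from 552 to 606 CPM in control to 1309 to 1707 CPM in ex14D, while Six4 and Eya3 lay below their inputs in every library.

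Set against the input of the same genotype, on the scale (CPM + 1)/(input CPM + 1), 5 of the 8 promoters (Six2, Six3, Six6, Eya2 and Eya4) were at least 2-fold enriched in both control libraries, where 11.3% of all promoters were. The same 5 were at least 2-fold enriched in both ex14D libraries, where 9.14% of all promoters were. Six2 was 22.9- and 15.5-fold over input in control and 26.0- and 31.6-fold in ex14D, where it overlapped Six3. Six3 was 15.1- and 13.8-fold over input in control and 25.5- and 33.2-fold in ex14D. Its rank among all promoters, by CPM, was the 99.5th and 99.7th percentile in control and the 99.9th in both ex14D libraries. Eya4 was 4.03- and 4.15-fold over input in control and 10.6- and 11.1-fold in ex14D. The Eya4 ratio rests on 18 input reads in control and 9 in ex14D, whose exact 95% Poisson intervals of 10.7 to 28.4 and 4.12 to 17.1 reads overlap and cover counting error only. Eya2 was 4.46- and 4.31-fold over input in control and 4.56- and 3.95-fold in ex14D, with no separation of the genotypes. Six6 was 12.7- and 9.87-fold over input in control and 7.25- and 6.41-fold in ex14D. Six5 was 1.51- and 2.57-fold over input in control and 0.813- and 0.873-fold in ex14D, on the side of input in both mutant libraries.

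For the test between genotypes, edgeR's quasi-likelihood model was fitted across 14883 promoters that passed its filter on low counts, among them all 8 family promoters, with Benjamini-Hochberg adjustment over all promoters. Of the 8, 3 were higher in ex14D, 0 were lower and 5 did not pass, while 5.83% of all promoters tested were called higher and 3.25% lower. These shares cover promoters with and without the mark, and the share among marked promoters alone was not counted. The median log2 fold change of the 8 was 0.54, and that of all promoters tested was -0.027. The largest difference was at Six3 (log2 fold change 1.83, SE 0.21, adjusted p = 1.813e-06). Six2 followed (1.12, SE 0.22, adjusted p = 0.0007742), and Eya4 was the third (0.86, SE 0.21, adjusted p = 0.006405). Six3 passed in each of 10 other settings. Without control library 2, Six2 (log2 fold change 0.81) and Eya4 (0.84) no longer passed, and Six3 (1.72) still did. Eya4 also failed without ex14D library 1 (0.91) or 2 (0.84). Fewer promoters of the whole table were called higher in each of these settings, which leave 1 library alone in its group. Eya4 failed too in edgeR when library sizes were not rescaled (adjusted p = 0.1706) and when all counted reads set the library size (adjusted p = 0.07007). With library sizes not rescaled, the log2 fold change of Six2 was 0.67 and that of Six3 was 1.38.

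The 5 promoters that did not pass in edgeR ran from Six4 (log2 fold change 0.77, SE 0.61, adjusted p = 0.5455), which had too few reads for a narrow estimate, to Six5 (-0.41, SE 0.29, adjusted p = 0.4789). Six6 (0.31, SE 0.20), Eya2 (0.26, SE 0.20) and Eya1 (0.20, SE 0.34) lay between them. For these last 3 the sign depended on how libraries were scaled. Their mean CPM was lower in ex14D, but edgeR's trimmed mean of M values (TMM), which assumes that most promoters do not change, gave the control libraries factors of 1.16 and 1.18 and the ex14D libraries 0.868 and 0.843. With library size only, the median change of all promoters was -0.471 on the log2 scale, and Six6 (-0.13), Eya2 (-0.19) and Eya1 (-0.24) were negative but above that median. In that setting 398 promoters of the whole table were called higher and 2130 lower, against 867 and 483 with TMM. The methods name no spike-in that would set an absolute scale, so each value is relative to the other promoters of its library. By Western blot the paper reports less total H3K27me3 in ex14D-Ezh2 cells. By ChIP-PCR it reports less of the mark at the developmental genes measured. A promoter called higher here was thus higher relative to other promoters, and a gain in the amount of the mark was not measured.

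**Figure D2:**
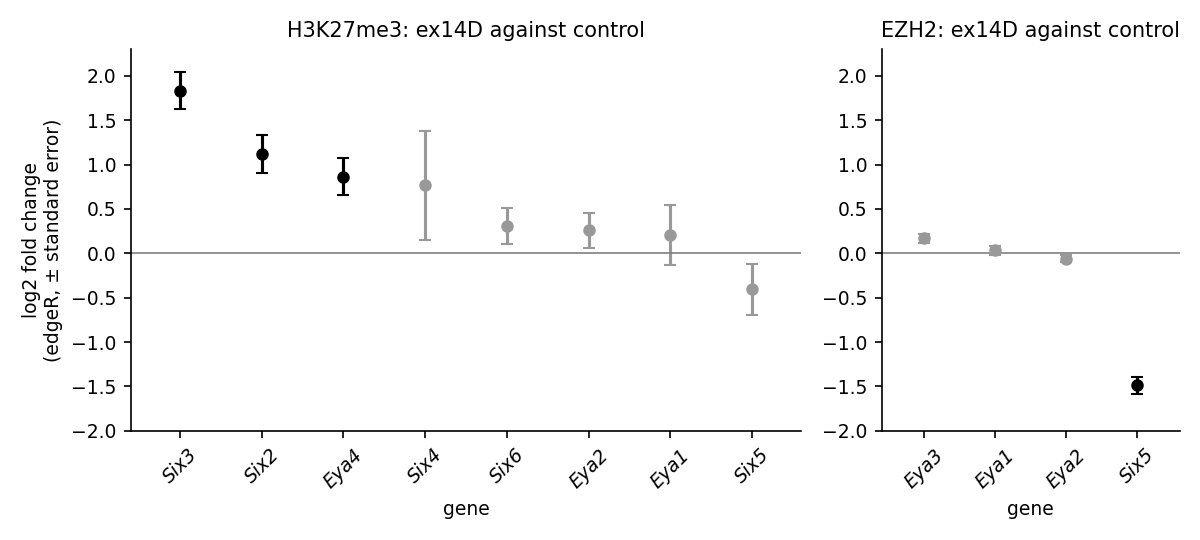
Log2 fold change of ex14D against control (edgeR, ± standard error) for H3K27me3 on promoters (left) and EZH2 on genes (right), with black points for genes past an adjusted p of 0.05 and grey points for the others. In H3K27me3, Six3 (1.83), Six2 (1.12) and Eya4 (0.86) were past the threshold and lay above 0. In EZH2, Six5 (-1.49) stood apart from Eya1, Eya2 and Eya3, and genes listed at 0 are not drawn.

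Broad H3K27me3 peaks, called by the authors in each library with MACS2, covered the promoter window of 6 of the 8 genes in all 4 libraries, while 15.1% of all promoters had a peak in all 4. The window of Six4 was covered in 0 libraries and that of Eya1 in 1, ex14D library 1, where the peak was 3.33 kb wide. EZH2 domains, called with hiddenDomains in each library, covered the same 6 windows in both control libraries, where 16.8% of all promoters were covered, and in both ex14D libraries, where 10.4% were. Six4 had a 2 kb domain in control library 2 that reached 76 bp into its window, and Eya1 had a 1 kb domain in the same library. Neither gene had a domain over its promoter in ex14D. The edges of all EZH2 domains over these promoters lay on a 1 kb grid, which limits how finely edges and widths can be read.

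The widest intervals lay at Six3 and Six2, 2 genes side by side on chromosome 17. In GRCm38, Six3 spans 85620834 to 85626191 on the forward strand and Six2 spans 85684268 to 85688254 on the reverse strand. The peak over Six3 was 31.6 and 31.9 kb wide in control and 30.6 and 27.6 kb in ex14D, and it took in the whole gene and the start of Six3os1, the antisense RNA gene beside it. The EZH2 domain over Six3 was 23 and 29 kb wide in control and 23 and 24 kb in ex14D. At Six2 the peak was 15.9 and 20.7 kb wide in control and 17.97 and 17.2 kb in ex14D, and the domain was 14 and 16 kb against 14 and 15 kb. The Six3 peak was thus narrower in both ex14D libraries, while the Six2 peak and both domains overlapped between genotypes in width.

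Peaks that lay between the 2 promoters and touched neither window covered 21.8 and 28.4 kb in control and 17.7 and 16.2 kb in ex14D. EZH2 domains there covered 5 and 12 kb in control and 1 and 0 kb in ex14D. Both ex14D libraries lay below both control libraries for each antibody. Over the whole 120 kb shown in the map of this locus, the promoter intervals included, peaks covered 72.9 and 80.9 kb in control and 66.3 and 61.0 kb in ex14D, and domains covered 42 and 57 kb against 38 and 39 kb. Peaks at 48.1 to 52.4 kb from the Six3 start in control library 1 and at 49.3 to 54.5 kb in control library 2 had no counterpart in either ex14D library. An EZH2 domain that ended at 26.2 kb, 5 kb wide in control library 1 and 8 kb wide in control library 2, was 1 kb wide in one ex14D library and absent in the other. Because intervals were called in each library by its own threshold, their covered length also moves with the depth and background of a library, and the part of depth in these differences was not tested.

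**Figure D3:**
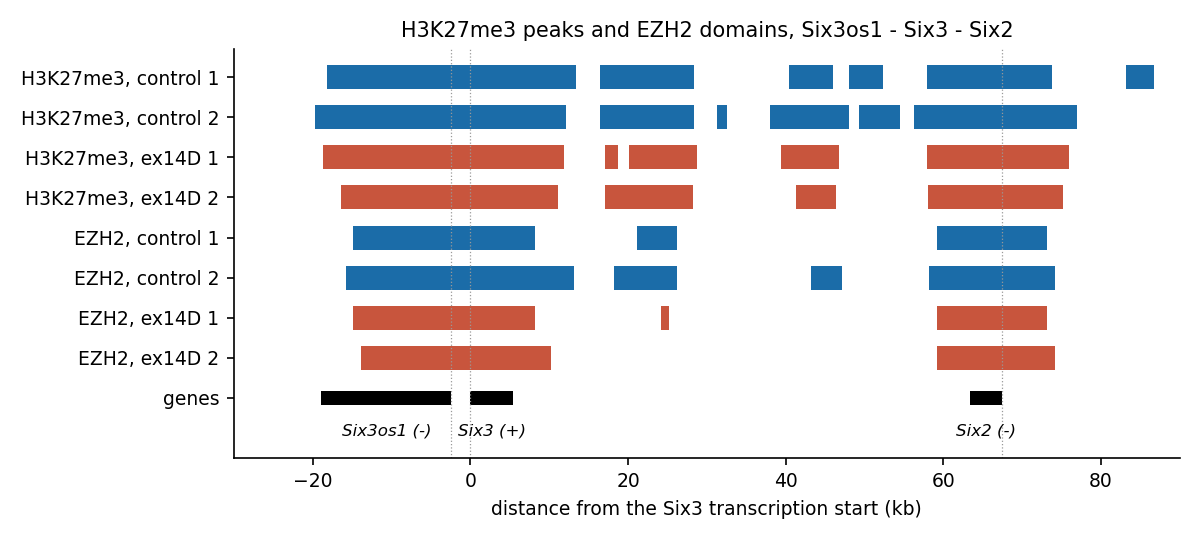
Map of the Six3 and Six2 locus by distance from the Six3 transcription start (kb), with 1 row per library, bars for H3K27me3 peaks or EZH2 domains and black bars for genes with their strand; dotted lines mark transcription starts. All 8 libraries had an interval over the Six3 start and another over the Six2 start, and peaks over the span drawn covered 72.9 and 80.9 kb in control and 66.3 and 61.0 kb in ex14D.

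On chromosome 12, Six6 (72939882 to 72944899, forward strand) and Six4 (73099609 to 73113425, reverse strand) had different states. Six6 had a peak of 12.4 and 13.4 kb in control and 12.4 and 12.01 kb in ex14D. Its EZH2 domain was 10 kb wide in both control libraries and 7 kb wide in both ex14D libraries. The upstream edge of that domain moved from 2.88 kb before the start in both control libraries to 0.881 kb before it in one ex14D library and 0.119 kb after it in the other. At Six4 the 2 kb domain of control library 2 was the only interval within the gene in any library.

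**Figure D4:**
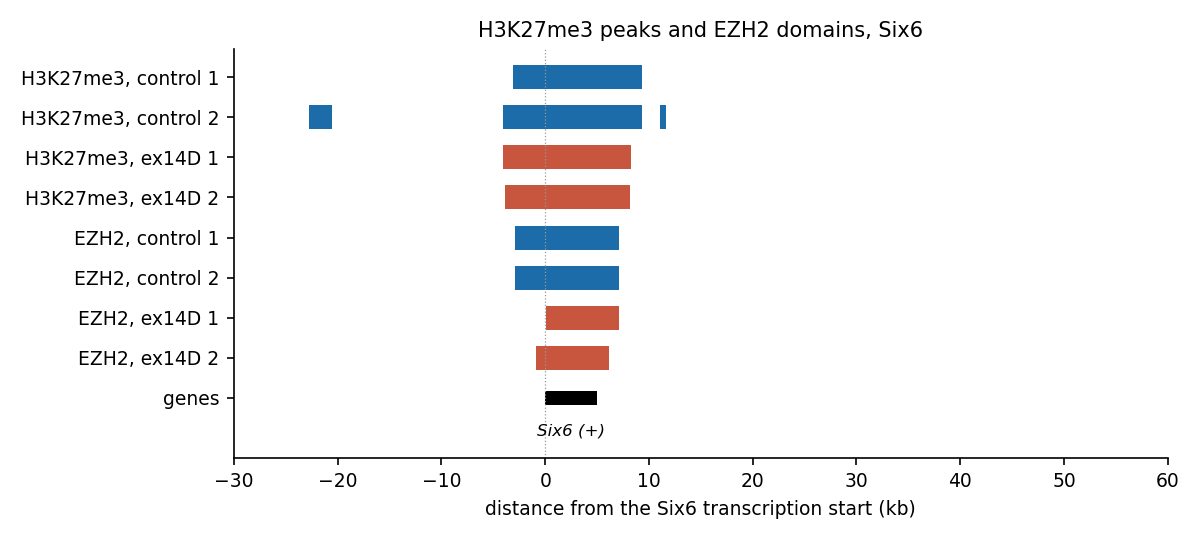
Map of the Six6 locus by distance from the Six6 transcription start (kb), drawn as for the Six3 and Six2 locus. A peak covered the start in all 4 H3K27me3 libraries. The EZH2 domain was 10 kb wide in control and 7 kb in ex14D, with its downstream edge at 6.12 to 7.12 kb in all 4 libraries.

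The remaining promoters carried narrower intervals. At Eya4 (chromosome 10, 23102962 to 23349943, reverse strand) the peak was 5.04 and 8.17 kb wide in control and 5.64 and 4.85 kb in ex14D, and the EZH2 domain was 5 and 6 kb against 4 and 3 kb. At Eya2 (chromosome 2, 165595028 to 165771727, forward strand) the peak was 4.02 and 6.18 kb wide in control and 4.59 and 3.86 kb in ex14D, and the domain was 3 and 5 kb against 2 kb in both ex14D libraries. At Six5 (chromosome 7, 19094544 to 19098345, forward strand) the domain was 3 and 4 kb against 2 and 3 kb. The Six5 peak began 0.082 to 0.344 kb after the transcription start in all 4 libraries, so it covered the gene body and only the last 156 to 418 bp of the promoter window. Its width was 6.85 and 5.61 kb in control and 4.21 and 3.17 kb in ex14D. Both Eya4 and Eya2 are long genes, and the domain at their start covered at most 1.60% and 2.25% of the gene.

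Among the 6 genes with a domain over the promoter in all 4 EZH2 libraries, 3 (Six6, Eya2 and Eya4) had a narrower domain in both ex14D libraries than in both control libraries, and 44.2% of the 2532 genes with such a domain did. For H3K27me3 peak width the count was also 3 of 6 (Six3, Six5 and Six6), against 38.0% of 3681 genes. These shares lie near those of all genes. On the 1 kb grid of the EZH2 domains, the closest widths of the 2 genotypes were 3 against 2 kb at Eya2 and 5 against 4 kb at Eya4. The fold enrichment that MACS2 gave the peak, a mean over its whole length, was higher in both ex14D libraries for 3 of 6 (Six2, Six3 and Eya2), against 44.4% of all, and lower for 1 of 6 (Six5), against 7.23%. At Eya2 it was 9.52 and 4.30 in control and 22.9 and 19.5 in ex14D, although the promoter reads of Eya2 did not pass the test between genotypes. Those promoter reads were 3.95- to 4.56-fold over input in every library. At Six3 the MACS2 value was 3.08 and 3.07 in control and 4.89 and 5.11 in ex14D. The control given to MACS2 is not named in the sources used here, so its fold enrichment and q are not read as enrichment over these inputs. With peaks of q under 0.001 only, 3 of the 8 genes (Six3, Six6 and Eya2) had a peak in every library. The share of all promoters with such a peak in every library was not counted.

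**Figure D5:**
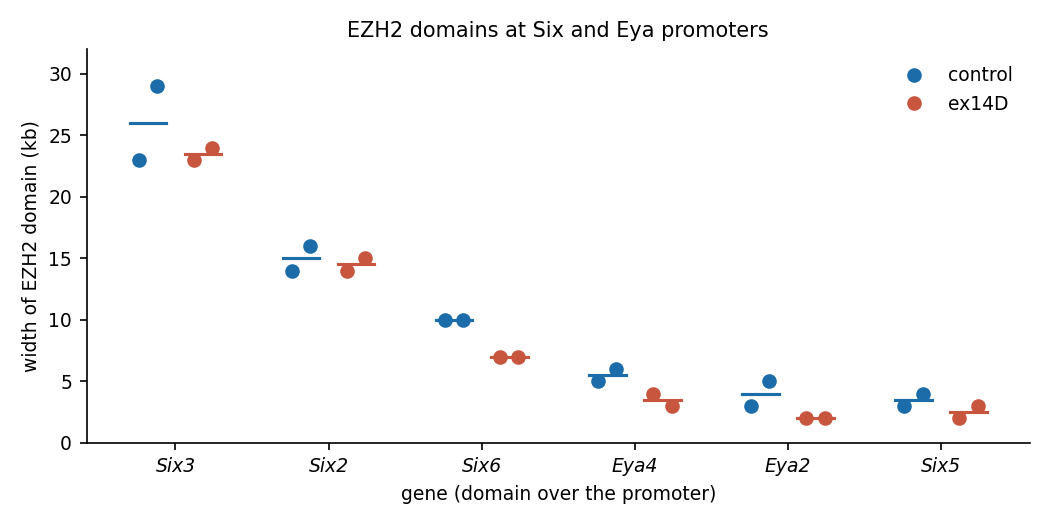
Width (kb) of the EZH2 domain over the promoter of the 6 genes covered in all 4 EZH2 libraries, with 1 dot per library and a bar at the mean of 2 libraries. Domains of Six6, Eya2 and Eya4 were narrower in both ex14D libraries, and those of Six2 and Six3 overlapped between genotypes.

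Unlike the H3K27me3 counts, the deposited EZH2 counts followed gene length and are read here as counts over genes. They could be used for 3 of the 8 genes. Six2, Six3, Six4, Six6 and Eya4 were listed at 0 in all 4 EZH2 libraries, as were 10575 of the 24500 genes. These zeros came in unbroken runs along the chromosome, of 121 genes over 23.2 Mb around Six2 and Six3, 662 genes over 83.2 Mb around Six6 and Six4, and 1131 genes over 126 Mb around Eya4. The EZH2 domains found over 4 of these 5 promoters in all 4 libraries show that reads were present there, so a listed 0 is not read as lack of EZH2. With these genes left out, 13401 genes were tested, of which 7.88% were called lower and 0.0522% higher in ex14D. Of the 3 family genes, 1 was lower, 0 were higher and 2 did not pass. Their median log2 fold change was -0.06, and that of all genes tested was 0.016. The paper reports less EZH2 protein in ex14D-Ezh2 cells by Western blot, and lower EZH2 enrichment in target genes by ChIP-seq. With no spike-in named, the EZH2 changes given here are relative to the other genes of a library. A change in the amount of EZH2 was not measured.

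The gene that fell was Six5. Its EZH2 reads numbered 373 and 535 in control and 150 and 159 in ex14D, or 26.9 and 29.1 CPM against 11.01 and 9.68 CPM, and the groups did not overlap. Per kb of gene this was 7.08 and 7.65 CPM in control and 2.90 and 2.55 CPM in ex14D, while the median of the 13881 genes above 0 was 0.966 to 1.03 in the 4 libraries. Six5 thus ranked at the 97.4th and 97.5th percentile of these genes in control and still at the 96.5th and 97.0th in ex14D. The log2 fold change was -1.49 (SE 0.10, edgeR adjusted p = 0.003251). Without control library 1 or control library 2, the log2 fold change was -1.54 and -1.42, but the adjusted p from edgeR was 0.1554 and 0.1791, and 0 genes of the whole table were called in either setting, with 1372 and 1300 genes lower at an unadjusted p under 0.05. H3K27me3 at the Six5 promoter did not pass its test. It was below both control libraries in plain CPM, but with the TMM factors applied the groups overlapped, at 64.0 and 107 CPM in control and 62.7 and 69.4 CPM in ex14D.

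Eya1 and Eya2 are far longer than Six5, at 141 and 177 kb against 3.80 kb, so a domain of a few kb at their start adds little to their count. Eya1 had 118 and 123 CPM of EZH2 in control and 125 and 129 CPM in ex14D (log2 fold change 0.03, SE 0.05, edgeR adjusted p = 0.8189). Per kb it had 0.838 to 0.915 CPM, below the median gene in every library. Eya2 had 200 and 206 CPM in control and 203 and 199 CPM in ex14D (-0.06, SE 0.04, edgeR adjusted p = 0.5561), or 1.12 to 1.17 CPM per kb. Relative to the other genes of each library, the groups differed little at either gene. The narrower EZH2 domain over the Eya2 start in both ex14D libraries was not seen in the count over the whole gene. Eya3, a widely expressed member with 0 peaks and 0 domains over its promoter, had 79.4 and 81.7 CPM in control and 93.3 and 93.4 CPM in ex14D (0.17, SE 0.05, edgeR adjusted p = 0.111).

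The genes that work with these families were described as lists, which like the family were drawn up with earlier results of these data known. Of 31 such genes, 28 could be tested for H3K27me3, and 15 were higher in ex14D, 3 were lower and 10 did not pass, with a median log2 fold change of 0.91. Of all promoters tested, with and without the mark, 5.83% were higher and 3.25% lower. With library size only, 12 of the 28 were higher and 5 lower, where 2.67% of all promoters were higher and 14.3% lower. Without ex14D library 2 fewer list genes were called lower, and without control library 2 fewer were called higher. Over the whole table, calls in the same direction also became fewer in each of these settings. In the list of eye field and optic factors, 4 of 6 were higher and 0 lower (median 1.35). In the list of kidney and muscle genes, 6 of 11 were higher and 1 lower (median 0.98). The network partners were more mixed, with 5 of 11 tested higher and 2 lower (median 0.21). Among the list genes past the threshold, the largest rises in edgeR were at Hoxa11, a factor of kidney and limb patterning (238 CPM in control, 685 in ex14D, log2 fold change 1.98, SE 0.22, adjusted p = 1.813e-06), and Nr2e1, a nuclear receptor of neural and retinal progenitors (1.77, SE 0.21, adjusted p = 2.75e-06). Among those past the threshold, the largest falls in edgeR were at Sall1, a zinc finger factor of the kidney (log2 fold change -2.65, SE 0.53, adjusted p = 0.001225), and Tle3, a Groucho-type corepressor (-1.73, SE 0.31, adjusted p = 0.0003196). The 2 control libraries of Sall1 were far apart, at 257 and 35.2 CPM, against 20.0 and 12.8 CPM in ex14D.

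In EZH2, 13 of the 31 were listed at 0, and of the 18 tested 11 were lower, 0 higher and 7 did not pass, with a median log2 fold change of -0.63, while 7.88% of all genes tested were lower and 0.0522% higher. Without control library 1 or 2, 0 of the 18 passed. Among those past the threshold, edgeR gave the largest falls at Pax6, a master factor of the eye (-1.25, SE 0.23, adjusted p = 0.01601), Myod1, a muscle determination factor (-1.22, adjusted p = 0.003251), Wt1, a factor of kidney and gonad (-0.95, SE 0.15, adjusted p = 0.01055), and Gdnf, the growth factor that draws out the ureteric bud (-0.87, SE 0.14, adjusted p = 0.01069). Pax6 and Gdnf were higher in H3K27me3 on the promoter in the same mutant cells (log2 fold change 0.96 and 1.14, edgeR adjusted p = 0.004407 and 0.0002787). Myod1, Wt1 and Six5 were lower in EZH2 without a called change in H3K27me3. The H3K27me3 estimate of Wt1 (0.98, SE 0.38) was as large as that of Pax6, on means of only 20.1 CPM in control and 28.1 CPM in ex14D. That of Myod1 was 0.21 (SE 0.22). Of the 31, 22 had an H3K27me3 peak and 21 an EZH2 domain over the promoter in all 4 libraries, as did 15.1% and 10.4% of all promoters.

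For each family gene, the gene with the nearest pattern over the libraries was found by Euclidean distance on log2 values. For Six3 this was Hoxc8 (distance 0.12), for Six2 Cdx2 (0.42), for Six6 B3gat1 (0.35), for Eya4 Slco3a1 (0.39) and for Six4 Aprt (0.24), over the 6 H3K27me3 and input libraries. Over all 10 libraries it was Plcl1 for Eya2 (0.25), Ptn for Eya1 (0.45) and Arl4c for Six5 (0.88). Distances over 6 and over 10 libraries are not on the same scale.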

How the data were processed

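H3K27me3, EZH2 and input ChIP-seq libraries from control and ex14D-Ezh2 E14 cells were grouped by the genotype and antibody in the labels. The authors aligned reads to mm10 with Bowtie (Bowtie2, with Trimmomatic, in the submitters' processing notes; versions not given in the sources used here) and ran htseq-count. The deposited counts are whole reads per row, not normalized. Per the study's methods the window is 1 kb centred on the 5′ most transcription start, but the deposited EZH2 counts followed gene length. Reads on no gene or on several made up 92.4% to 98.1% of reads in the H3K27me3 and input libraries and 55.7% to 56.1% for EZH2. They were kept out of library sizes. Broad peaks were called by the authors library by library with MACS2, whose score (not used), fold enrichment and −log10 p and q were deposited. For EZH2 domains the authors deposited positions only. H3K27me3 domain files were not used, since their coordinates run past GRCm38 chromosome ends.

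Counts were compared with edgeR 4.0.16 in R 4.3.3 (TMM, filterByExpr, quasi-likelihood test, Benjamini-Hochberg, threshold 0.05), separately for each antibody. The procedure was also run on simulated data in which most genes did not change. That run therefore could not test the TMM assumption. Approximate standard errors were taken from the F statistic and the log2 fold change. The pseudocount over input was 1 CPM. An interval covered a promoter if it overlapped by at least 1 bp the 1 kb window at the 5′ most curated RefSeq start (GRCm38, 24354 of 24500 genes placed). Alternatives were library scaling, no filter on low counts, DESeq2 1.42.0, a replicate block, each library left out, a stricter q and a stricter overlap.

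Genes named were the 8 family members, Eya3, up to 4 called list genes of largest change per antibody, and the nearest gene of each member. Six3os1 was named after its position was seen. A gene of these lists is not reported here and was left out of the list counts. The members and lists were chosen with earlier results of these data known.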

Additional observations from a re-analysis of the deposited data

How the results depend on the processing

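For H3K27me3, the median log2 fold change of the 8 genes moved from 0.54 to 0.097 with library size only, and ran from 0.14 to 0.65 with each library left out, lowest without control library 2. The count of family genes past the threshold ran from 1 to 3 with each library left out. With library size only, Six6 (-0.13), Eya1 (-0.24) and Eya2 (-0.19) turned negative, and without control library 2, Six4 and Eya1 turned negative and Six5 positive. With each library left out, Six4 ran from -0.14 to 1.92, Eya1 from -0.033 to 0.36 and Six5 from -0.75 to 0.0078. None of these passed its test in the settings tried. For EZH2, the median of the 3 genes tested moved from -0.06 to -0.017 with library size only and ran from -0.10 to -0.036 with each library left out, and the count past the threshold ran from 0 to 1. With a library left out 1 library stands alone in its group and is assumed to vary like the other group. Peaks of q under 0.001 left 3 of 6 genes with a peak in every library, and the share left among all promoters was not counted. Among the 31 list genes, lower H3K27me3 calls went from 3 to 5 with library size only and ran from 1 to 3 with each library left out, higher calls ran from 6 to 15, and lower EZH2 calls ran from 0 to 14. Over the whole table, 7 genes were higher in EZH2 with edgeR and 0 with DESeq2, where 7 had an unadjusted p under 0.05.

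With the replicate number as a block, 3 family genes passed in H3K27me3 (median 0.53) and 1 in EZH2 (median -0.06), as without it. The deviations of same-numbered libraries correlated at -0.102 over 14883 promoters and -0.0317 over 13401 genes, so they share only a number. A crossed pairing, chosen after seeing the data, gave 3 and 1.

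H3K27me3 values rest on 3 to 13 reads at Six4 and 27 to 51 at Eya1. The 9 to 28 reads of each input limit every fold over input.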
